A study of Arabidopsis thaliana with 15 samples.

Results

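A group of 10 genes of sulfate uptake, sulfate assimilation and the response to sulfur deficiency were followed by gene ID through mRNA sequencing of *Arabidopsis thaliana* rosettes. They were 10 of the 32833 genes in the count table, and 9 of them passed the filter on low counts, beside 19663 tested genes in all. The members were APR1, APR2, APR3, ATPS1, SULTR2;1, SDI1, LSU1, LSU2, BGLU28 and GGCT2;1, and LSU1 was the member below the filter. The study asked how misexpression of the transcription factor NAC052 alters the leaf, and sequenced the complete rosettes of 28-day-old, soil-grown plants of 5 lines with 3 replicates each.

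All 5 lines are in the Col-0 ecotype, and per the study's methods they share a GFP reporter behind the GLDPA promoter of *Flaveria trinervia*, which drives it in the leaf bundle. The reference line carries this reporter alone. The activation-tagged line also has a GLDT promoter of *F. trinervia* inserted within the NAC052 coding region, from which a 5'truncated transcript is made. The CRISPR/Cas line carries a mutated NAC052. GLDT::NAC052 plants and GLDT::5'truncatedNAC052 plants keep their own NAC052 and express an added full-length or 5'truncated copy from the GLDT promoter. Per the labels no genotype has more than a single named line, and the GLDT::5'truncatedNAC052 labels hold no line number. The GLDT promoter is active mainly around the veins, whereas the RNA came from whole rosettes. In such bulk samples, fewer cells of a type and less RNA per cell cannot be told apart.

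Plants take up sulfate through SULTR transporters and activate it with ATP sulfurylase to adenosine phosphosulfate (APS). APS is then reduced by APS reductase on the way to cysteine and glutathione, or phosphorylated by APS kinase for sulfated compounds such as glucosinolates. When sulfur runs short, Arabidopsis raises a well known set of genes, among them SDI1, the LSU genes, BGLU28 and GGCT2;1, partly through the transcription factor SLIM1, and these are widely used as markers of sulfur deficiency. A short element with the core GAGAC is known from a sulfur-responsive promoter, that of SULTR1;1.

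The stretch of 250 bases before each annotated gene start was read from the TAIR10.1 assembly of RefSeq and searched on both strands for GAGAC and for CTTGNNNNNCAAG, the palindrome known for NAC050 and NAC052. GAGAC was found for 3 of 10 members, beside 25.8% of 27443 protein-coding genes with such a window. The palindrome was found for 0 of 10 members, beside 0.74% of the same genes. The 3 matches belong to sulfur-deficiency genes, while LSU1 and LSU2, also deficiency genes, had no match. They are shown on the strand of the gene, with GTCTC, the reverse complement of GAGAC, in capitals.
SDI1: acgtggtaagaaGTCTCcaagtgacgtgg
BGLU28: agctaagatacgGTCTCatttgggggtaa
GGCT2;1: tggaccatttctGTCTCtattaggtaaga
The SDI1 stretch lies at chr5:19807860-19807888 on the minus strand, and its match ends 18 bases before the gene start. The BGLU28 stretch lies at chr2:18346179-18346207 on the plus strand, with the match 110 bases before the start. The GGCT2;1 stretch lies at chr5:9164947-9164975 on the minus strand, with the match 74 bases before the start. Such a match is a run of letters and says nothing of binding.

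Each library held 28074380 to 38579309 counts (median 36691617). Levels are given as CPM, the counts per 1000000 of a library's total after TMM scaling (trimmed mean of M values). The names of the sequencing files place reference and activation-tagged plants (6 libraries) on lane 1 and the other lines (9 libraries) on lane 8, so that for the 3 lines of lane 8 line and lane cannot be told apart in any comparison with the reference line. Comparisons among those 3 lines are within the lane. NAC052 itself had 19.5 to 20.6 CPM in the reference line, 61.7 to 80.0 in activation-tagged plants and 20.1 to 22.6 in CRISPR/Cas plants, where a change in the coding sequence need not alter the count. It had 279.9, 27.2 and 165 CPM in replicates 1, 2 and 3 of the GLDT::NAC052 line and 25.0, 66.0 and 52.5 in GLDT::5'truncatedNAC052 plants. Replicate 2 of the GLDT::NAC052 line and replicate 1 of the GLDT::5'truncatedNAC052 line thus lay nearest the reference line, and the member results that passed in these lines are also given without them. Summed leaf markers (RBCS1A, LHCB2.2, PSAD1) had 20600 to 22500 CPM in the reference line, 21100 to 24200 in activation-tagged plants, 16700 to 18200 in CRISPR/Cas plants, 13200 to 17300 in GLDT::NAC052 plants and 16000 to 21900 in GLDT::5'truncatedNAC052 plants. The 5 floral markers summed to at most 2.04 CPM, the 3 root hair markers to at most 0.236 CPM, and the late senescence gene SAG12 was at 0 in every library.

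Levels of different members were compared per kilobase of exon in the reference line. ATPS1 was highest at 250 CPM per kb, followed by SULTR2;1 at 58.6, APR2 at 13.3, APR1 at 10.5 and APR3 at 3.87 CPM per kb. The deficiency genes lay below all of these, with LSU2 at 2.5, GGCT2;1 at 1.37, SDI1 at 0.561, BGLU28 at 0.164 and LSU1 at 0.0104 CPM per kb. The assimilation genes were therefore measured from many reads a library, and the lowest deficiency genes from few.

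**Figure D1:**
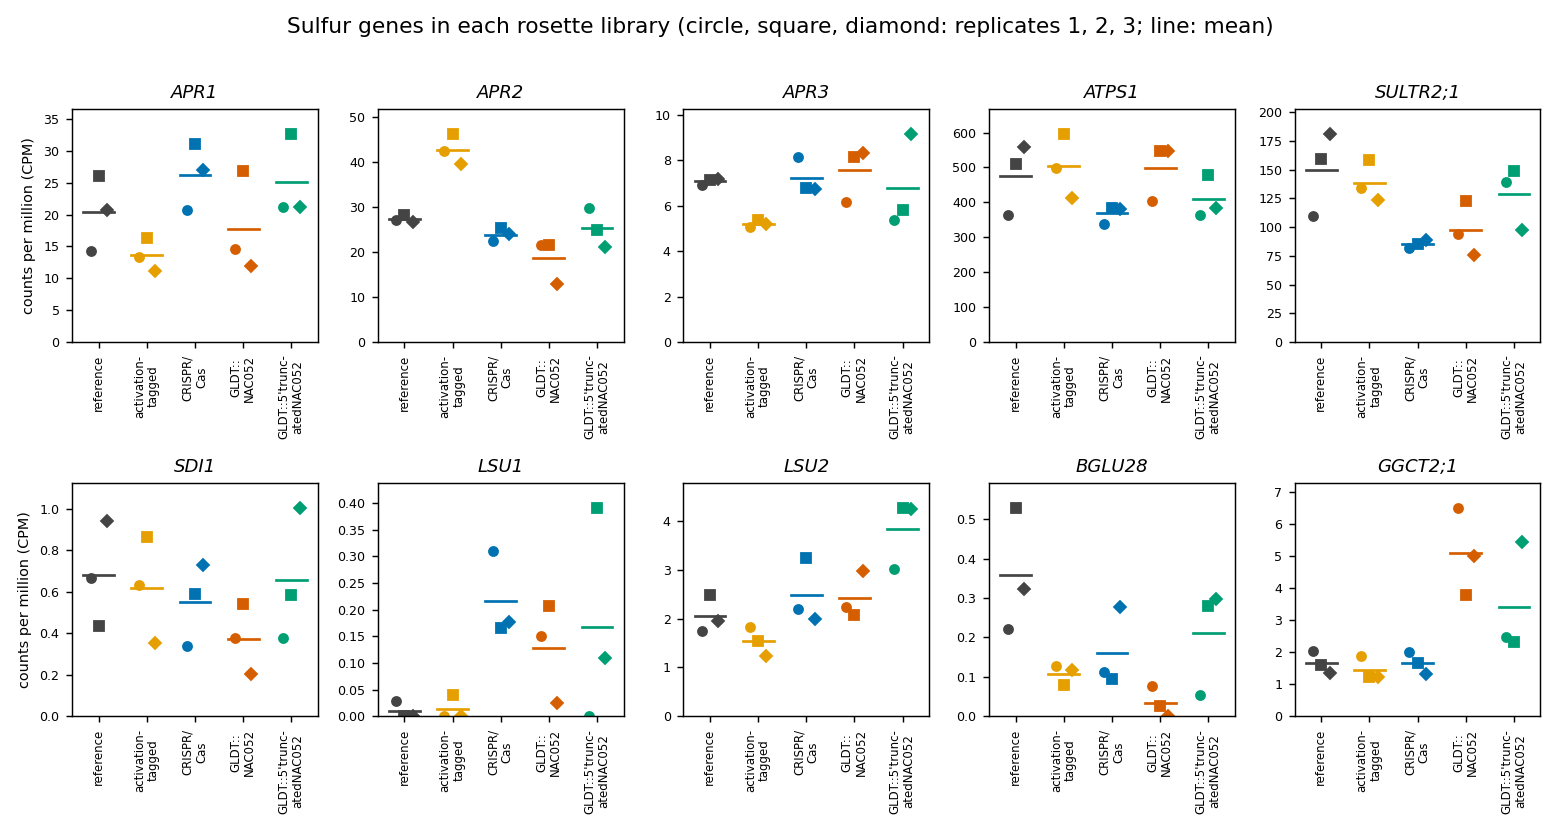
CPM of the 10 members in each library, a panel per gene, with a point per replicate and a horizontal line at the mean of each line; each vertical axis starts at 0 and has its own range. APR2 is highest in the 3 activation-tagged libraries, GGCT2;1 in the 3 GLDT::NAC052 libraries and 1 GLDT::5'truncatedNAC052 library, and LSU1 is at or near 0 in all 6 libraries of lane 1.

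The members were compared with the reference line, and the share of all tested genes stands beside each count. A gene is said to have passed at an adjusted p under 0.05 over all tested genes, and to have been called when its fold change was also above 2 or below 0.5, the limits of the study. In activation-tagged plants 1 of 9 members passed, APR2, which rose, beside 1.90% of all tested genes that passed upwards and 1.74% that passed downwards. In CRISPR/Cas plants 1 passed, SULTR2;1, which fell, beside 11.0% upwards and 12.8% downwards. In GLDT::NAC052 plants 4 passed, with GGCT2;1 higher and BGLU28, APR2 and SULTR2;1 lower, beside 17.0% and 17.3% of all tested genes. In GLDT::5'truncatedNAC052 plants LSU2 alone passed, upwards, beside 2.80% upwards and 3.03% downwards. The members' median log2 fold change was -0.21, -0.19, -0.20 and -0.06 in these lines, in that order, against medians of all tested genes between -0.01 and 0.01.

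With the fold limit, the called members were 0 in activation-tagged plants, 0 in CRISPR/Cas plants, 2 in GLDT::NAC052 plants and 0 in GLDT::5'truncatedNAC052 plants by edgeR. All tested genes were called in 1.14%, 6.73%, 8.21% and 0.941% in the same order. At an unadjusted p under 0.05 the members numbered 3, 1, 4 and 2. DESeq2 called 0, 1, 2 and 1 members and limma voom 0, 0, 2 and 0. Of the 4 tested members that mark sulfur deficiency, SDI1, LSU2, BGLU28 and GGCT2;1, at most 1 passed upwards in any line.

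**Figure D2:**
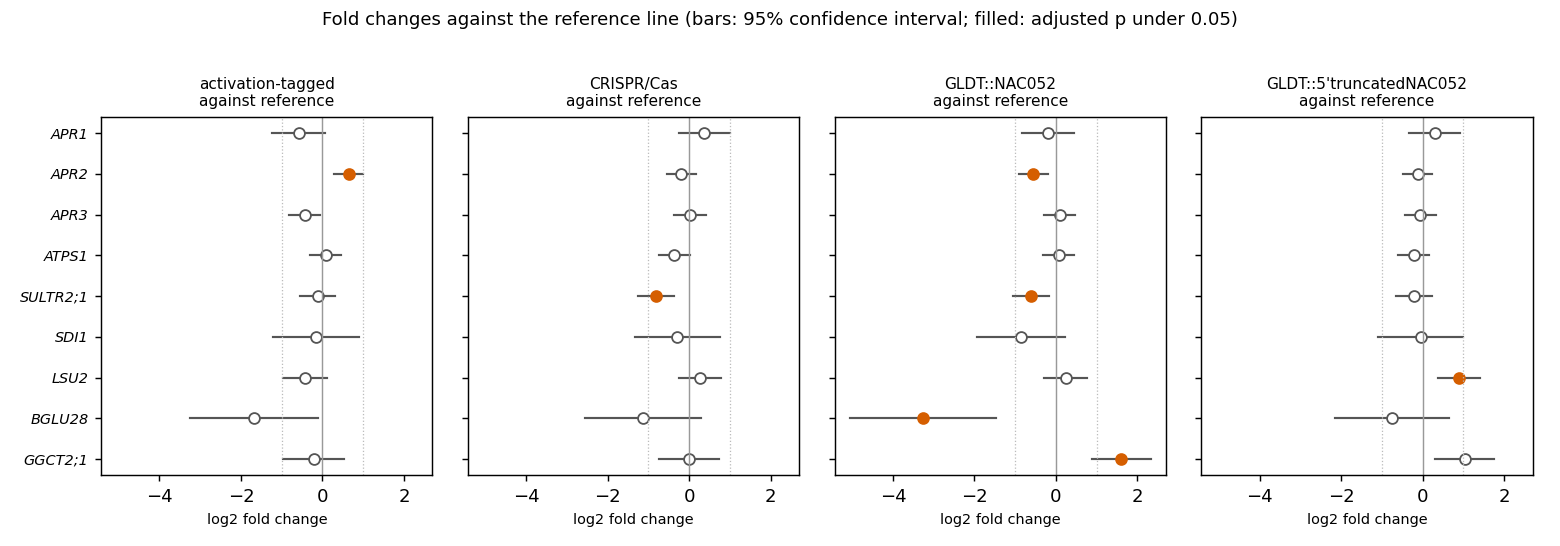
Log2 fold change of the 9 tested members in each line against the reference line, with 95% confidence intervals; filled points have an adjusted p under 0.05, and dotted lines mark a fold of 2 in either direction. The filled points are APR2 in activation-tagged plants (0.65), SULTR2;1 in CRISPR/Cas plants (-0.81), GGCT2;1, BGLU28, APR2 and SULTR2;1 in GLDT::NAC052 plants and LSU2 in GLDT::5'truncatedNAC052 plants (0.90).

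SULTR2;1 (AT5G10180), a low-affinity sulfate transporter of the vascular tissue, was lower in CRISPR/Cas plants and in GLDT::NAC052 plants than in the reference line. Its level was 109, 159 and 182 CPM in the reference libraries and 82.2, 85.6 and 89.1 CPM in the CRISPR/Cas libraries. These groups did not overlap, and the CRISPR/Cas libraries also varied least, with a standard deviation of 3.45 CPM against 17.8 to 36.9 CPM in the other lines (n = 3 each). The fitted log2 difference was -0.81 with a standard error of 0.21 (adjusted p = 0.0128, edgeR), a fold of 0.571. The GLDT::NAC052 libraries had 94.3, 123 and 75.5 CPM, overlapping the reference line, and the log2 difference was -0.62 with a standard error of 0.21 (adjusted p = 0.0308, edgeR). The activation-tagged line had 134, 158 and 123 CPM and the GLDT::5'truncatedNAC052 line 140, 149 and 97.2 CPM. In order of mean level the reference line came highest, then activation-tagged, GLDT::5'truncatedNAC052, GLDT::NAC052 and CRISPR/Cas plants. The neighbours at the low end, CRISPR/Cas and GLDT::NAC052, had a log2 difference of -0.19 (95% confidence interval -0.63 to 0.25). Leaf markers were lower in these same lines, with the ranges given above, and their part in the SULTR2;1 result was not tested. The CRISPR/Cas result did not pass without reference replicate 3 (log2 fold change -0.65, adjusted p = 0.058, edgeR). The GLDT::NAC052 result did not pass without reference replicate 2 (-0.58), reference replicate 3 (-0.46), GLDT::NAC052 replicate 1 (-0.59) or GLDT::NAC052 replicate 3 (-0.46), nor with only the 6 libraries compared (adjusted p = 0.0791, edgeR), whereas without GLDT::NAC052 replicate 2 it was -0.82 (adjusted p = 0.0113, edgeR).

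ATPS1 (AT3G22890, APS1 in the annotation), the ATP sulfurylase that activates sulfate, was the most abundant member and passed in no comparison of the model with all 15 libraries. It had 363, 509 and 558 CPM in the reference line and 498, 597 and 413 CPM in activation-tagged plants. It had 339, 385 and 382 CPM in CRISPR/Cas plants, 404, 546 and 546 CPM in GLDT::NAC052 plants, and 365, 480 and 383 CPM in GLDT::5'truncatedNAC052 plants. Every line overlapped the reference line in its range. The log2 fold changes against the reference line ran from -0.37 in CRISPR/Cas plants to 0.08 in activation-tagged plants. The interval for the CRISPR/Cas line reached from -0.75 to 0.01, so that a fall of that size is not shown to be absent, and without reference replicate 1 it passed (-0.53, adjusted p = 0.0475, edgeR).

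The APS reductases reduce APS to sulfite in the plastid, and APR2 is known as the main isoform of leaves. APR2 (AT1G62180) had 27.1, 28.2 and 26.6 CPM in the reference line and 42.4, 46.3 and 39.5 CPM in activation-tagged plants. All 3 activation-tagged libraries lay above every other library. The log2 fold change was 0.65 with a standard error of 0.17 (95% confidence interval 0.29 to 1.00, adjusted p = 0.0467, edgeR), a fold of 1.56 within lane 1. With 1 library fewer, the adjusted p was between 0.0889 and 0.163 in all 6 such fits and the log2 fold change between 0.58 and 0.70. APR2 also did not pass by limma voom (adjusted p = 0.0528) or by edgeR with library totals alone (0.54, adjusted p = 0.0634). In GLDT::NAC052 plants APR2 had 21.5, 21.4 and 12.8 CPM, all below the reference libraries, and the log2 difference was -0.55 with a standard error of 0.17 (adjusted p = 0.0197, edgeR). That result did not pass without reference replicate 2 (-0.53) or GLDT::NAC052 replicate 3 (-0.34), nor with only the 6 libraries compared (adjusted p = 0.0659, edgeR), and was -0.67 without GLDT::NAC052 replicate 2 (adjusted p = 0.0148, edgeR). The CRISPR/Cas line had 22.4, 25.2 and 23.9 CPM and the GLDT::5'truncatedNAC052 line 29.7, 24.9 and 21.2 CPM. Their log2 fold changes of -0.19 and -0.11 did not pass.

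APR1 (AT4G04610) and APR3 (AT4G21990) passed in no comparison of the model with all 15 libraries. APR1 had 14.3, 26.1 and 20.8 CPM in the reference line, 13.4, 16.3 and 11.2 in activation-tagged plants, and 20.7, 31.1 and 27.1 CPM in CRISPR/Cas plants. It had 14.6, 26.8 and 11.9 CPM in GLDT::NAC052 plants and 21.3, 32.8 and 21.2 CPM in GLDT::5'truncatedNAC052 plants. The spread within a line was about as large as that between lines, with standard deviations from 2.56 to 7.91 CPM around means from 13.6 to 26.3 CPM (n = 3 each). APR3 had 6.93, 7.13 and 7.17 CPM in the reference line and 5.06, 5.39 and 5.20 CPM in activation-tagged plants. These groups did not overlap, yet the log2 fold change of -0.44 had an adjusted p of 0.214 (edgeR, unadjusted p = 0.0306). The other 9 libraries had between 5.37 and 9.18 CPM of APR3, on both sides of the reference line. APR2 and APR3 thus lay apart from the reference line in opposite directions in activation-tagged plants, and only the APR2 difference passed. Across the 15 libraries the log2 CPM of APR2 and APR3 had a Pearson r of -0.78 and a Spearman rho of -0.77, a description over libraries that share lines and lanes.

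The coding sequences of APR1, APR2 and APR3 are 72.4% to 80.1% identical by base in pairwise alignments of TAIR10.1, and the longest run of bases shared without a mismatch is 41 in APR1 and APR3. In the annotation APR1 overlaps AT4G04614, APR2 overlaps AT1G62170 and AT1G08477, and APR3 overlaps AT4G21980, each on the opposite strand. The kit keeps the strand, but whether the counting used it is not given in the sources used here. Whether reads of the overlapping stretches were kept apart from those of the antisense partners is therefore not known. The other 7 members overlap no annotated gene.

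Among the genes that mark sulfur deficiency, SDI1 (AT5G48850), a repressor of glucosinolate synthesis, stayed at low levels in every line. Reference libraries had 24, 14 and 29 counts of it, with 20, 22 and 12 in the activation-tagged libraries and 12, 25 and 29 in the CRISPR/Cas libraries. It had 15, 21 and 8 counts in the GLDT::NAC052 libraries and 14, 21 and 37 in the GLDT::5'truncatedNAC052 libraries. Every line overlapped the reference range of 0.436 to 0.941 CPM. The log2 fold changes against it ran from -0.86 to -0.05, and the widest of them, for GLDT::NAC052 plants, had a 95% confidence interval of -1.93 to 0.22, so that no difference was detectable at this depth.

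LSU2 (AT5G24660), a member of the small LSU proteins named for their response to low sulfur, was higher in GLDT::5'truncatedNAC052 plants. It had 1.75, 2.49 and 1.95 CPM in the reference line and 3.01, 4.27 and 4.24 CPM in GLDT::5'truncatedNAC052 plants, without overlap. The log2 fold change was 0.90 with a standard error of 0.24 (adjusted p = 0.0451, edgeR), a fold of 1.86 that stays under the fold limit. It had 1.84, 1.53 and 1.23 CPM in activation-tagged plants, 2.19, 3.24 and 1.99 CPM in CRISPR/Cas plants and 2.24, 2.08 and 2.97 CPM in GLDT::NAC052 plants. None of these passed against the reference line. The GLDT::5'truncatedNAC052 result passed with 1 library fewer only when its replicate 1 was left out (log2 fold change 1.05, adjusted p = 0.0425, edgeR). It did not pass without reference replicate 1 (0.79), 2 (1.05) or 3 (0.86), or without replicate 2 (0.81) or 3 (0.82) of its own line. With no filter on low counts the adjusted p was 0.0501 and with only the 6 libraries compared it was 0.102 (edgeR).

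LSU1 (AT3G49580) was detected almost wholly in the libraries of lane 8. Its counts were 1, 0 and 0 in reference plants and 0, 1 and 0 in activation-tagged plants, a total of 2 over the 6 libraries of lane 1. It had 11, 7 and 7 counts in the CRISPR/Cas libraries, 6, 8 and 1 in the GLDT::NAC052 libraries and 0, 14 and 4 in the GLDT::5'truncatedNAC052 libraries, a total of 58 over the 9 libraries of lane 8. Of these 9 libraries 8 had a count, against 2 of 6 on lane 1. The ratio of the scaled totals of the CRISPR/Cas and reference lines was 21 (exact 95% interval 3.43 to 861, for counting error only). Line and lane cannot be told apart for this difference, and the 3 lines of lane 8 overlapped one another. LSU1 lay below the filter and has no test in the main model. A fit with no filter gave an adjusted p of 0.0578 for the CRISPR/Cas line against the reference line (edgeR), and DESeq2 gave 0.042.

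The LSU genes are close copies in tandem pairs, LSU1 with LSU3 (AT3G49570) and LSU2 with LSU4 (AT5G24655). LSU2 and LSU4 are 87% identical by base in their coding sequences, with a longest shared run of 30 bases, and LSU1 and LSU3 are 80.7% identical with a shared run of 23. LSU4 had 0.389 to 0.666 CPM in the reference line and 1.2 to 1.6 CPM in GLDT::5'truncatedNAC052 plants, without overlap, with a log2 fold change of 1.28 that did not pass (adjusted p = 0.0544, edgeR). LSU3 had 5, 7 and 17 counts in the reference line and 35, 20 and 29 in GLDT::NAC052 plants, with a log2 fold change of 1.24 (adjusted p = 0.147, edgeR).

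BGLU28 (AT2G44460), a beta-glucosidase that breaks down glucosinolates under sulfur deficiency, was lowest in GLDT::NAC052 plants. Its counts were 8, 17 and 10 in reference plants and 3, 1 and 0 in GLDT::NAC052 plants. These groups did not overlap. The reference line had 35 counts in all against 4, a ratio of scaled totals of 10.4 (exact 95% interval 3.73 to 40.4, for counting error only). The fitted log2 fold change was -3.27 with a standard error of 0.83 (adjusted p = 0.00821, edgeR), a value that rests on few reads and is imprecise. It was -3.12 without GLDT::NAC052 replicate 2 (adjusted p = 0.0287, edgeR) and passed in all 6 fits with 1 library fewer. The activation-tagged line had 4, 2 and 4 counts, the CRISPR/Cas line 4, 4 and 11, and the GLDT::5'truncatedNAC052 line 2, 10 and 11. Their log2 fold changes against the reference line were -1.68, -1.13 and -0.76, none of which passed, and the reference line had the highest mean level of BGLU28.

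GGCT2;1 (AT5G26220), a gamma-glutamyl cyclotransferase that degrades glutathione, was higher in GLDT::NAC052 plants. It had 2.05, 1.59 and 1.36 CPM in the reference line and 6.52, 3.78 and 5.02 CPM in GLDT::NAC052 plants. Every GLDT::NAC052 library lay above every reference library. The log2 fold change was 1.61 with a standard error of 0.33 (95% confidence interval 0.89 to 2.33, adjusted p = 0.00251, edgeR), a fold of 3.05. It was 1.78 without GLDT::NAC052 replicate 2 (adjusted p = 0.00243, edgeR), the library with the lowest NAC052 and the lowest GGCT2;1 of that line. The activation-tagged line had 1.87, 1.22 and 1.23 CPM and the CRISPR/Cas line 2.02, 1.67 and 1.33 CPM, with log2 differences of -0.21 and -0.00 from the reference line that did not pass. In GLDT::5'truncatedNAC052 plants GGCT2;1 had 2.47, 2.32 and 5.46 CPM, all above the reference line, and its replicate 3 reached the level of the GLDT::NAC052 line. The log2 fold change of 1.03 in that line did not pass by edgeR (adjusted p = 0.0883) and passed by DESeq2 (adjusted p = 0.039). It was 1.22, 1.24 and 0.51 without its replicates 1, 2 and 3, and passed in none of these fits. BGLU28 and GGCT2;1 both belong to the sulfur-deficiency genes, and in GLDT::NAC052 plants they lay on opposite sides of the reference line.

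Within lane 8, where no lane difference enters, GGCT2;1 was lower in the CRISPR/Cas line than in the GLDT::NAC052 line. In this comparison it was the 1 of 9 members that passed and was called, beside 12.9% of all tested genes that were called, 20.5% that passed upwards and 20.9% downwards. The CRISPR/Cas libraries had at most 2.02 CPM of GGCT2;1 and the GLDT::NAC052 libraries at least 3.78 CPM. The log2 fold change of the CRISPR/Cas line was -1.61 with a standard error of 0.33 (adjusted p = 0.00159, edgeR), and passed in all 6 fits with 1 library fewer, with -1.79 without GLDT::NAC052 replicate 2. SULTR2;1, APR1, APR3, SDI1 and LSU2 had log2 differences between -0.19 and 0.57 that did not pass. APR2 (0.36), ATPS1 (-0.44) and BGLU28 (2.14) did not pass either, at adjusted p of 0.0983, 0.0644 and 0.0685 (edgeR), although the libraries of both lines did not overlap for any of these 3 genes. ATPS1 passed by DESeq2 (adjusted p = 0.0402), with only the 6 libraries compared (0.0443, edgeR) and without GLDT::NAC052 replicate 1 (-0.57, adjusted p = 0.0284, edgeR). BGLU28 passed without GLDT::NAC052 replicate 1 as well (3.33, adjusted p = 0.0414, edgeR), and APR2 with library totals alone (0.43, adjusted p = 0.0339, edgeR). Without GLDT::NAC052 replicate 2 APR1 passed, at 0.99 (adjusted p = 0.0126, edgeR) where all 15 libraries gave 0.57 (adjusted p = 0.138), while APR2 (0.47), ATPS1 (-0.37) and BGLU28 (1.99) did not.

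Against the GLDT::5'truncatedNAC052 line, 2 members passed in CRISPR/Cas plants, both lower, beside 13.2% of all tested genes that passed upwards and 15.4% downwards. GGCT2;1 was called at a log2 difference of -1.03 (standard error 0.33, adjusted p = 0.0323, edgeR), beside 8.08% of all tested genes called. Without replicate 3 of the GLDT::5'truncatedNAC052 line it was -0.52 (adjusted p = 0.177, edgeR), and it also did not pass without CRISPR/Cas replicate 2 (-1.02) or 3 (-0.89), by limma voom (adjusted p = 0.0588), with library totals alone (0.06) or with only the 6 libraries compared (0.0756). Without GLDT::5'truncatedNAC052 replicate 1 it was -1.22 (adjusted p = 0.0277, edgeR). SULTR2;1 had a log2 difference of -0.59 (standard error 0.21, adjusted p = 0.0461, edgeR), and the 3 CRISPR/Cas libraries lay below the 3 GLDT::5'truncatedNAC052 libraries. That result passed with 1 library fewer only without GLDT::5'truncatedNAC052 replicate 3 (-0.75), and had -0.62 to -0.47 without each of the 5 others, -0.52 without GLDT::5'truncatedNAC052 replicate 1. It also did not pass with median-of-ratios size factors (adjusted p = 0.0517), with library totals alone (0.0705) or by limma voom (0.0518), and so passed in 6 of 14 alternatives. LSU2 (-0.63) did not pass in this comparison (adjusted p = 0.0619, edgeR), but did by limma voom (0.0431) and without GLDT::5'truncatedNAC052 replicate 1 (-0.78, adjusted p = 0.0453, edgeR) or CRISPR/Cas replicate 2 (-0.87, adjusted p = 0.0265, edgeR).

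Between the 2 GLDT lines 0 of 9 members passed by edgeR, beside 4.77% of all tested genes upwards, 3.78% downwards and 1.75% called. At an unadjusted p under 0.05 the members were 3 (APR2, BGLU28 and LSU2), each with a lower fitted level in GLDT::NAC052 plants, and DESeq2 and limma voom passed 0. GGCT2;1 had a log2 difference of 0.58 (95% confidence interval -0.10 to 1.26), which was 1.09 without GLDT::5'truncatedNAC052 replicate 3 (adjusted p = 0.0205, edgeR).

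**Figure D3:**
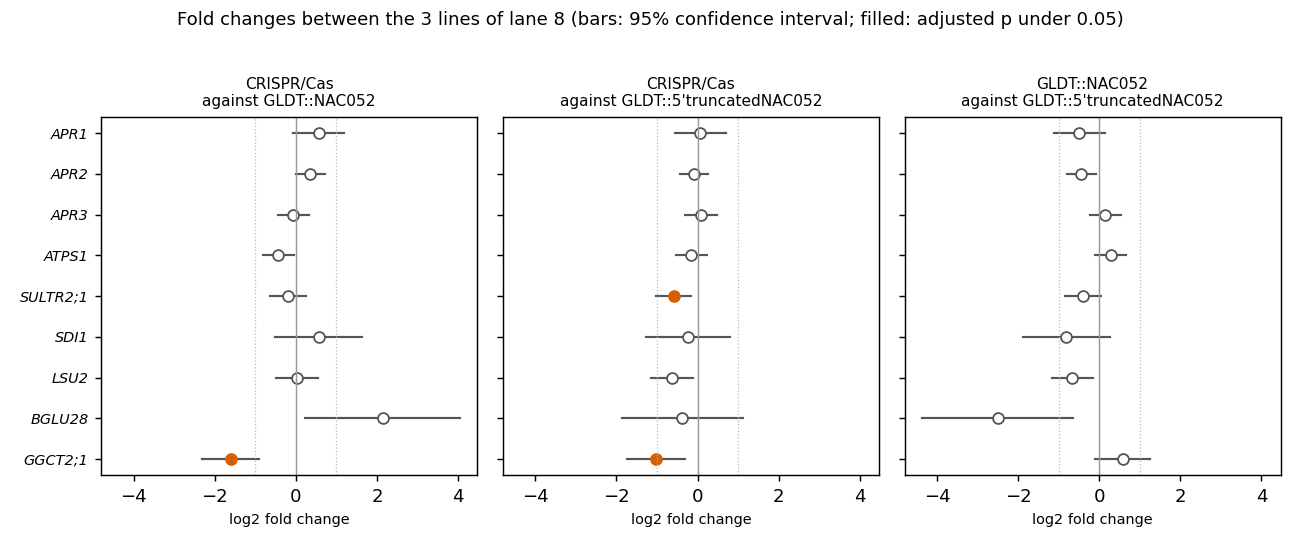
Log2 fold change of the 9 tested members between the 3 lines of lane 8, with 95% confidence intervals; filled points have an adjusted p under 0.05, and dotted lines mark a fold of 2. GGCT2;1 is filled in both comparisons of the CRISPR/Cas line (-1.61 and -1.03), SULTR2;1 in the comparison with the GLDT::5'truncatedNAC052 line (-0.59), and no point is filled between the 2 GLDT lines.

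A wider list of 39 genes of sulfate transport, assimilation, cysteine and glutathione metabolism and sulfur deficiency was read beside the members, of which 36 were tested. Those that passed numbered 0 upwards and 3 downwards in activation-tagged plants, 3 and 4 in CRISPR/Cas plants, 3 and 5 in GLDT::NAC052 plants and 0 and 2 in GLDT::5'truncatedNAC052 plants, each against the reference line. The list's median log2 fold changes were -0.13, -0.03, 0.05 and -0.05 in that order. For CRISPR/Cas against GLDT::NAC052 plants 8 passed upwards and 9 downwards. For CRISPR/Cas against GLDT::5'truncatedNAC052 plants 5 passed upwards and 7 downwards, and between the 2 GLDT lines 2 and 2. Read against the shares of all tested genes given above, 17 of 36 stands beside 20.5% and 20.9% in the CRISPR/Cas and GLDT::NAC052 comparison, and nothing particular to the list was tested.

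Of the 36 tested genes, 1 was called in activation-tagged, 1 in CRISPR/Cas, 3 in GLDT::NAC052 and 0 in GLDT::5'truncatedNAC052 plants against the reference line, all lower. All tested genes were called in 1.14%, 6.73%, 8.21% and 0.941%. For CRISPR/Cas against GLDT::NAC052 plants 2 were called higher and 3 lower, beside 12.9% of all tested genes. Against GLDT::5'truncatedNAC052 plants 1 was higher and 3 lower, beside 8.08%, and 0 were called between the GLDT lines, beside 1.75%. In all, 8 genes of the list were called in at least 1 comparison. The share of all tested genes called in any comparison was not computed, and an excess of transporters among the 8 was not tested. SULTR1;2, a high-affinity transporter of root uptake, had 4.85, 4.92 and 5.61 CPM in the reference line and 1.46, 1.90 and 1.42 CPM in GLDT::NAC052 plants. Its log2 fold change was -1.68 (standard error 0.22, adjusted p = 0.000152, edgeR), and the groups did not overlap. SULTR2;2, a vascular transporter related to SULTR2;1, had 10.01, 12.2 and 12.6 CPM in the reference line and 5.11, 4.66 and 2.97 CPM in GLDT::NAC052 plants (log2 fold change -1.45, standard error 0.22, adjusted p = 0.000309, edgeR). SULTR4;2, which releases sulfate from the vacuole, fell by 1.07 on the log2 scale in that line (standard error 0.23, adjusted p = 0.00305, edgeR). For SULTR1;2, SULTR2;2 and SULTR4;2, every GLDT::5'truncatedNAC052 library also lay below every reference library. SULTR1;2 passed there (log2 fold change -0.84, adjusted p = 0.0377, edgeR), unlike SULTR2;2 (-0.63) and SULTR4;2 (-0.65). In CRISPR/Cas plants they had -0.42, 0.44 and -0.63 in that order, and none passed. For these lines of lane 8, line and lane cannot be told apart against the reference line. In GLDT::NAC052 plants SULTR2;1 and SULTR3;1 (-0.66) passed downwards as well, without reaching the fold limit. The list's other tested transporters were not called in that line, and their mean CPM went both ways against the reference line. SULTR4;1 (24.8 against 22.0), SULTR3;2 (0.372 against 0.249) and SULTR3;4 (0.771 against 0.747) were higher. SULTR3;3 (53.4 against 64.6) and SULTR3;5 (1.44 against 1.53) were lower.

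SULTR3;5, known from roots as a partner of SULTR2;1, had 0.971, 1.71 and 1.91 CPM in the reference line and 0.365, 0.564 and 0.226 CPM in CRISPR/Cas plants. Its log2 fold change was -1.97 (standard error 0.38, adjusted p = 0.00272, edgeR), and it was called lower as well against the GLDT::NAC052 line (-1.89) and the GLDT::5'truncatedNAC052 line (-1.29), the last of which passed in 3 of 6 fits with 1 library fewer. SULTR2;2 had 12.7, 15.6 and 18.9 CPM in CRISPR/Cas plants, above every library of both GLDT lines, and was called higher there with log2 differences of 1.89 and 1.07. SULTR2;1 and SULTR2;2, the vascular pair, thus lay on opposite sides of the GLDT::5'truncatedNAC052 line in CRISPR/Cas plants. SULTR1;2 was called higher in CRISPR/Cas than in GLDT::NAC052 plants (1.26), and SULTR3;4 lower in CRISPR/Cas than in GLDT::5'truncatedNAC052 plants (-1.55).

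SERAT1;1, a serine acetyltransferase that supplies the carbon skeleton of cysteine, had 101.7, 120.2 and 123 CPM in GLDT::NAC052 plants against 49.5, 60.5 and 62.8 CPM in the reference line. The log2 difference, 1.00 with a standard error of 0.11 (adjusted p = 4.19e-05, edgeR), stood at the fold limit without passing it, and SERAT1;1 was called lower in CRISPR/Cas than in GLDT::NAC052 plants (-1.26). GGCT2;2, a further enzyme of glutathione breakdown, was at 142.8, 147.8 and 137.8 CPM in the reference line and 93.4, 60.5 and 66.0 CPM in CRISPR/Cas plants, where it passed with -0.96 (adjusted p = 0.0026, edgeR). It was called lower in that line than in GLDT::NAC052 plants (-1.15) and GLDT::5'truncatedNAC052 plants (-1.11). Both GGCT2;1 and GGCT2;2 were therefore lower in CRISPR/Cas plants than in either GLDT line. For GGCT2;1 the difference from the GLDT::5'truncatedNAC052 line did not pass without replicate 3 of that line. Against the reference line GGCT2;1 was level in CRISPR/Cas plants (-0.00), unlike GGCT2;2. GGCT2;3, also on the list, had means of 40.8 CPM in CRISPR/Cas, 42.5 in GLDT::NAC052 and 35.5 in GLDT::5'truncatedNAC052 plants. APK2, an APS kinase of glucosinolate synthesis, was called lower in activation-tagged plants (-1.04, adjusted p = 0.0449, edgeR), and passed in 1 of 6 fits with 1 library fewer.

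**Figure D4:**
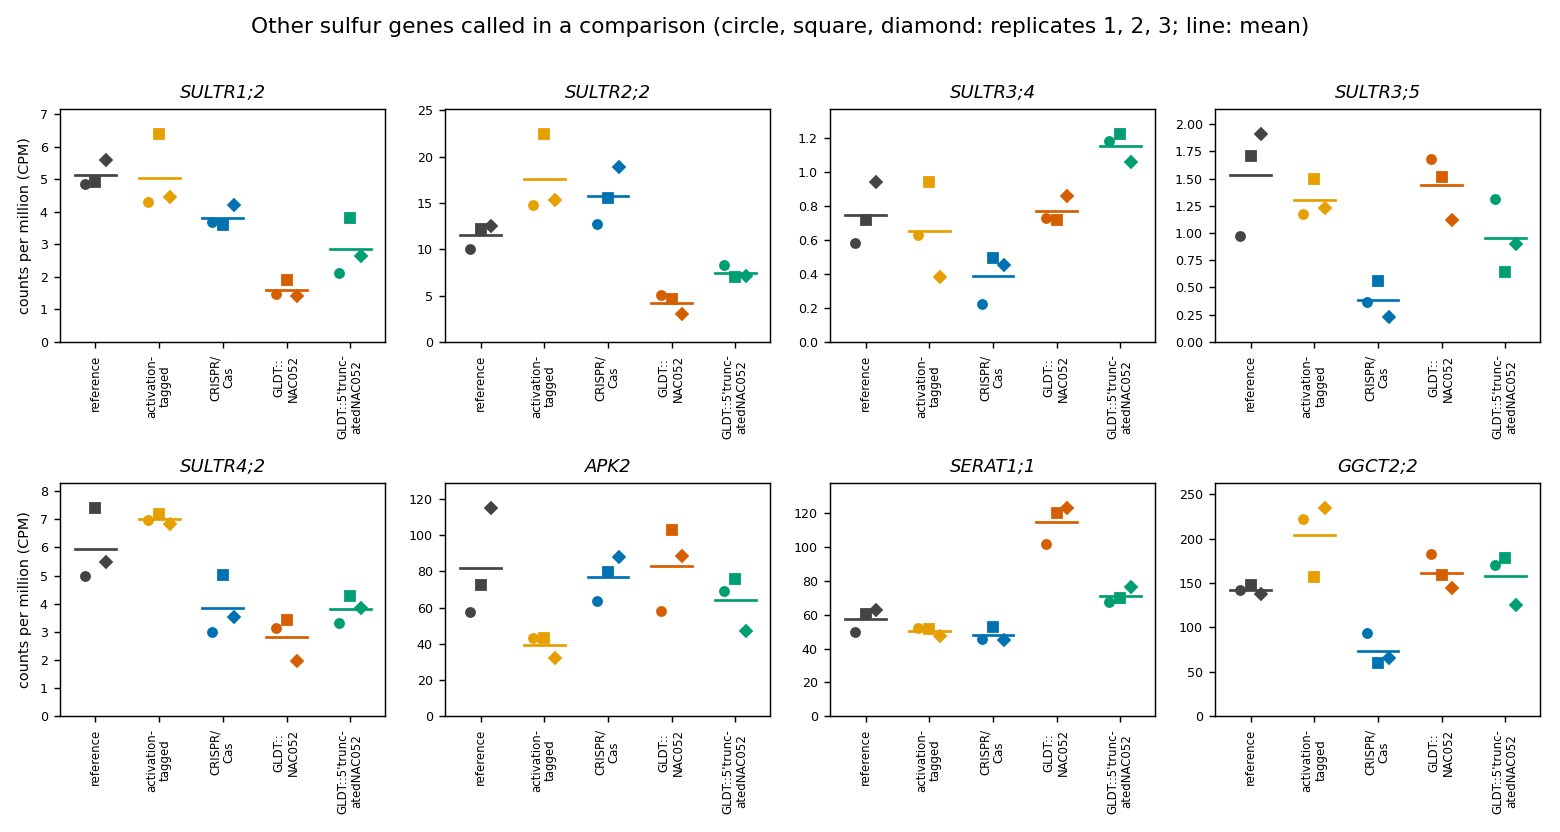
CPM in each library of the 8 genes of the wider sulfur list that were called in at least 1 of the 7 comparisons, with a point per replicate and a line at the mean; each vertical axis starts at 0 and has its own range. SULTR1;2 and SULTR2;2 are lowest in the GLDT::NAC052 libraries, SULTR3;5 in the CRISPR/Cas libraries, and SERAT1;1 is highest in the GLDT::NAC052 libraries.

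A set of 6 genes that rise together when O-acetylserine accumulates is known from Arabidopsis: APR3, SDI1, LSU1, GGCT2;1, SHM7 and AT1G04770, a gene of the SDI1 family. In GLDT::NAC052 plants only GGCT2;1 of the 5 tested genes passed against the reference line. SHM7, a serine hydroxymethyltransferase, had 15.3 to 17.8 CPM in the reference line and 16.9 to 19.5 CPM in GLDT::NAC052 plants, with a log2 fold change of 0.13 (95% confidence interval -0.13 to 0.39). AT1G04770 had 2.91, 3.92 and 3.21 CPM in the reference line and 4.52, 4.49 and 4.75 CPM in CRISPR/Cas plants, where it passed with 0.45 (adjusted p = 0.0362, edgeR). It was the only one of the 5 that passed in CRISPR/Cas plants, and it was also higher there than in GLDT::NAC052 plants (0.77, adjusted p = 0.000905, edgeR) and the GLDT::5'truncatedNAC052 line (0.54, adjusted p = 0.014, edgeR).

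The members did not share a common pattern across the 15 libraries. The pairs with the highest Pearson r of log2 CPM were APR2 with SULTR2;1 (0.63) and SDI1 with BGLU28 (0.56). After the mean of each line was taken off, APR1 with SULTR2;1 (0.80) and APR1 with ATPS1 (0.67) were the highest, so that these assimilation genes varied together among replicates of a line. GGCT2;1 had an r of -0.69 with APR2. The tested gene with the most similar log2 CPM over the 15 libraries was PHT4;1 for APR2 (0.97), AT1G62790 for GGCT2;1 (0.95), AT5G15750 for APR3 (0.93), FHY1 for SULTR2;1 (0.92) and AT1G78820 for BGLU28 (0.89). For LSU2 it was AT5G59240 (0.87), for APR1 AT3G22550 (0.84), for ATPS1 AT1G66480 (0.84) and for SDI1 PRT6 (0.78). None of these nearest genes was in the wider sulfur list, which makes up only 36 of the 19663 tested genes. These values are descriptions over libraries that share lines and lanes.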

How the data were processed

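The deposited table holds raw read counts per gene, whole numbers without normalization. Per the labels and the study's methods, the authors prepared stranded mRNA libraries (TruSeq), demultiplexed them with bcl2fastq, trimmed the reads and mapped them to the TAIR10 genome in CLC Genomics Workbench. Whether counting used the strand is not given in the sources used here. Another 6 count columns match none of the described samples, and no step used them.

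Genes were kept by edgeR's filterByExpr (10 counts at the median library size in a line's libraries, at least 15 in all), and 19663 of 32833 genes were kept. Library sizes were adjusted by TMM (trimmed mean of M values), and counts were fitted with edgeR 4.0.16 (glmQLFit, glmQLFTest) in R 4.3.3, in 1 model holding the 15 libraries, with line as the only term. The p-values were adjusted by Benjamini-Hochberg over all tested genes, and the procedure was tested on simulated data. DESeq2 1.42.0 and limma 3.58.1 (voom) were alternatives, as were other scalings and filters, the 6 libraries compared, a replicate block, no fold limit and leaving out each library. Log2 CPM used a prior count of 2. Exact intervals of count ratios are Clopper-Pearson intervals and cover counting error only.

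The genes named are the 10 members, every gene of a wider sulfur list of 39 that was called in a comparison, the nearest gene to each member, and NAC052. LSU3, LSU4, SULTR3;1, SHM7 and AT1G04770 were added to these, after their values were seen, as tandem copies, a related transporter or genes of a known set. Members and lists were chosen with earlier results of these data known. Symbols follow RefSeq's TAIR10.1 annotation, which holds 32548 of the table's gene IDs, and coordinates, exon lengths and sequences come from that assembly. Promoter and protein tables were not used, so windows of 250 bases were read from the genome and coding identities were computed by base with Biopython 1.88.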

Additional observations from a re-analysis of the deposited data

How the results depend on the processing

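No value of a member that passed changed direction: of 138 refits of the 10 member values that passed, 100 still passed and 38 did not, and of 726 refits of the 53 values that did not pass, 15 passed and 30 had the other sign. The count of members called went from 0 to 1 in activation-tagged plants with no fold limit, from 0 to 1 in CRISPR/Cas plants with DESeq2 (LSU1) or with no fold limit, and from 0 to 1 in GLDT::5'truncatedNAC052 plants with DESeq2 (GGCT2;1) or with no fold limit. In GLDT::NAC052 plants it went from 2 to 4 with no fold limit, and to 1 with at least 10 counts in every library or with only the 6 libraries compared, both of which leave out BGLU28. For CRISPR/Cas against GLDT::5'truncatedNAC052 it went from 1 to 0 with library totals alone, limma voom or only the 6 libraries, and to 2 with no fold limit. Leaving out each library gave 0 to 1 members in GLDT::5'truncatedNAC052 plants, 1 to 2 between CRISPR/Cas and GLDT::NAC052, 0 to 1 for CRISPR/Cas against GLDT::5'truncatedNAC052 and 0 to 1 between the GLDT lines. The cause was not tested where none is given.

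All genes called moved by over 1.5 times in activation-tagged plants (225, against 375 by DESeq2, 131 by limma voom and 94 to 209 with 1 library fewer), the GLDT::5'truncatedNAC052 line (185, against 281 by DESeq2, 54 with only the 6 libraries and 66 to 185 with 1 library fewer) and between the GLDT lines (345, against 13 with only the 6 libraries and 97 to 664 with 1 library fewer). With no fold limit they were 717, 4683, 6736 and 1147 against the reference line, in the order activation-tagged, CRISPR/Cas, GLDT::NAC052 and GLDT::5'truncatedNAC052, then 8146 and 5624 for CRISPR/Cas against the GLDT lines and 1680 between these. Library totals alone shifted the median gene's log2 fold change from -0.01 to -0.11, from 0.00 to 0.19 and from -0.00 to 0.11 in the first 3 lines. They moved the share of called genes that were higher from 48.9% to 64.8% in CRISPR/Cas plants, from 65.2% to 78% in GLDT::NAC052 plants, from 65.9% to 79% in GLDT::5'truncatedNAC052 plants and from 42.1% to 52.9% for CRISPR/Cas against the latter.

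The replicate numbers were not taken as pairs, since in no comparison were all 3 correlations of same-numbered libraries over 0.1 (range -0.09 to 0.44), and 2 to 4 of 6 libraries correlated best with their own number. With the replicate block the members called were 0, 0, 2 and 0 against the reference line and 1, 1 and 0 within lane 8, as without it. Members that passed went from 1 to 4 with the block for CRISPR/Cas against GLDT::NAC052, with APR1 (0.62, adjusted p = 0.0114, edgeR), APR2 (0.38, adjusted p = 0.0454) and ATPS1 (-0.43, adjusted p = 0.0288) added, and kept their number in the 6 other comparisons. With the block all genes called were 238, 1352, 1611, 207, 2560, 1610 and 400. Depth limits SDI1, LSU1 and BGLU28, with at most 37 counts a library.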

Other observations

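APR1 was highest in the library numbered 2 in all 5 lines, with 26.1 CPM in the reference line, 16.3 in activation-tagged plants, 31.1 in CRISPR/Cas plants, 26.8 in GLDT::NAC052 plants and 32.8 in GLDT::5'truncatedNAC052 plants. Of the 19663 tested genes, 378 (1.92%) had their highest library under the same number in every line. No label says that a number marks a shared day or tray.

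SULTR1;1 and SULTR1;3 of the wider sulfur list and BGLU30, a dark-inducible beta-glucosidase, lay below the filter on low counts and have no test here.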
